A study of Mus musculus with 6 samples.

Results

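The nuclear genes for the subunits of the mitochondrial respiratory chain and ATP synthase were followed through bone marrow RNA from mice whose transplanted blood stem cells carried endogenous or overexpressed miR-125a. Members were the protein-coding rows whose gene symbol marks a subunit of complex I (Nduf genes), II (Sdha to Sdhd), III (Uqcr genes and Cyc1), IV (Cox4 to Cox8 genes) or V (Atp5 genes). Assembly factors named Ndufaf and the gene Cox6a2 were left out. This rule gave 86 rows of the 55450 in the count table: 38 of complex I, 4 of complex II, 9 of complex III, 17 of complex IV and 18 of complex V.

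Both groups came from C57BL6/SJL mice, and both were sampled 12 weeks after transplantation into irradiated recipients. The groups, miR-125a expression endogenous and miR-125a overexpression, differed only in that label. The sources used here name neither the vector and promoter behind the overexpression nor the ages of the mice. Each library was made from 2000 sorted bone marrow cells labelled as lacking lineage markers and carrying Sca-1, a surface protein of stem and progenitor cells. Of 6 labelled libraries, 3 in each group, the count table held endogenous 1 and 3 and overexpressed 2 and 3, so 2 libraries stood against 2. The labels do not say that libraries came from separate recipients, so p-values measure only the spread between these libraries.

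Complexes I to IV pass electrons from NADH and succinate to oxygen. All of them but complex II pump protons across the inner mitochondrial membrane, and complex V uses the proton gradient to make ATP. The catalytic cores of complexes I, III and IV and a membrane part of complex V come partly from mitochondrial DNA, but most subunits are nuclear genes, transcribed in part under the factors NRF1 and GABPA. Quiescent blood stem cells are known for a low use of oxidative phosphorylation, which rises as they become dividing progenitors. In bulk RNA, fewer cells of a type and less RNA per cell cannot be told apart.

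Since the groups differ in a microRNA, sites for its seed in the members come first. A microRNA pairs mainly through its seed, bases 2 to 8, with messenger RNA. The mature miR-125a-5p from RefSeq (GRCm38.p6, chr17:17830817-17830840, plus strand) is shown with its seed in capitals, followed by 30-base windows of the 3′ UTRs of 4 members, from the GENCODE M21 transcripts on GRCm38, with the matching site in capitals.
miR-125a-5p: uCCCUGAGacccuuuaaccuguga
Ndufs4, chr13:114288397-114288426, minus strand: actaaaccactCTCAGGGAaattcttttgt
Uqcr11, chr10:80403056-80403085, minus strand: ggtctgcaccgCTCAGGGAgcttccatgtt
Uqcrfs1, chr13:30540701-30540730, minus strand: acacgtggaCTCAGGGcctaggtttctgtc
Cox7a2l, chr17:83502288-83502317, minus strand: ggccagccgtgCTCAGGGcctcgggactca

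Ndufs4 and Uqcr11 have the 8-letter match CTCAGGGA, and Uqcrfs1 and Cox7a2l have the 7-letter match CTCAGGG. These are the 4 members with a site that matches all of seed bases 2 to 8. Searching the longest annotated 3′ UTR of each gene for CTCAGGG or TCAGGGA, which overlap in the 8-letter match, found a site in 7 of 85 members (8.24%). Over all protein-coding genes with a 3′ UTR the share was 20.8% (4404 of 21130). The members' 3′ UTRs were shorter, with a median of 264 bases against 1085 over all genes. The remaining genes with a site were Ndufb2 and Atp5g1, with 2 sites each, and Cox4i1. A match describes letters and does not show that the site is used.

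Counts of the genes with a site did not move alike. Ndufs4, an accessory subunit of complex I, had 8 and 29 counts in endogenous 1 and 3 and 4 and 7 in overexpressed 2 and 3. Uqcrfs1, the Rieske iron-sulfur protein of complex III, had 170 and 37 against 11 and 27. Cox4i1, a nuclear subunit of complex IV, had 9 and 24 against 2 and 1. For these 3 genes, values scaled to library size were lower in both overexpressed libraries than in both endogenous ones, and for the other 4 the groups overlapped. Of all genes with a count, 14.3% were lower in this way. Cox7a2l, which helps join complexes III and IV, had 7 and 13 counts against 61 and 5, so overexpressed 2 alone was high.

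The row for the miR-125a gene itself held 0, 0, 0 and 1 count, in the order endogenous 1, endogenous 3, overexpressed 2 and overexpressed 3, which is used from here on. A count of that size does not check the group labels. Total counts ran from 654126 to 737431. Ly6a, which encodes Sca-1, had 1, 0, 1 and 1 counts, so the labelled surface protein is hardly seen in the RNA. Other stem and progenitor markers differed. Flt3 had 56, 37, 242 and 33 counts, Cd34 had 32, 26, 58 and 38, Kit had 4, 25, 9 and 5, and Procr had 1 in each library. Signal was also broad and low. As a background, 1479 receptor genes for odorants, pheromones and trace amines, which blood cells are not known to use, had between 2.56 and 3.77 counts per kb of exon in sum.

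Subunit genes stood only partly above that background. The members summed to 4.11, 10.6, 10.05 and 3.49 counts per kb of exon, and the median member had 1.64, 5.08, 2.26 and 1.49. A density of 8.30 counts per kb, which 95% of the receptor genes did not exceed, was passed by 27 of 86 members in the mean of the 4 libraries. By complex these were 9 of 38 in complex I, 1 of 4 in II, 2 of 9 in III, 10 of 17 in IV and 5 of 18 in V. With the receptors' 99% density of 26.4 counts per kb as the limit, 7 members passed, and with their median of 1.93, 60 did. Ndufb10 and Ndufv2, subunits of complex I, and the readthrough row of Atp5o had 0 counts in every library, which allows up to 3 counts in each.

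Libraries of the same group differed more than the groups. All 86 members together held 713, 1836, 1743 and 606 counts, or 0.109% (95% Wilson interval 0.101 to 0.117), 0.258% (0.246 to 0.270), 0.236% (0.226 to 0.248) and 0.0846% (0.0782 to 0.0917) of the library. Endogenous 3 and overexpressed 2 were high, endogenous 1 and overexpressed 3 were low, and the groups overlapped. Endogenous 3 was 2.36 times endogenous 1 and overexpressed 2 was 2.79 times overexpressed 3, while the mean share of the overexpressed group was 0.875 times that of the endogenous group. At least 10 counts were reached by 14, 47, 28 and 14 members, and 16, 11, 17 and 21 members were at 0. These intervals cover counting error only, since reads without molecular identifiers are not independent molecules.

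**Figure D1:**
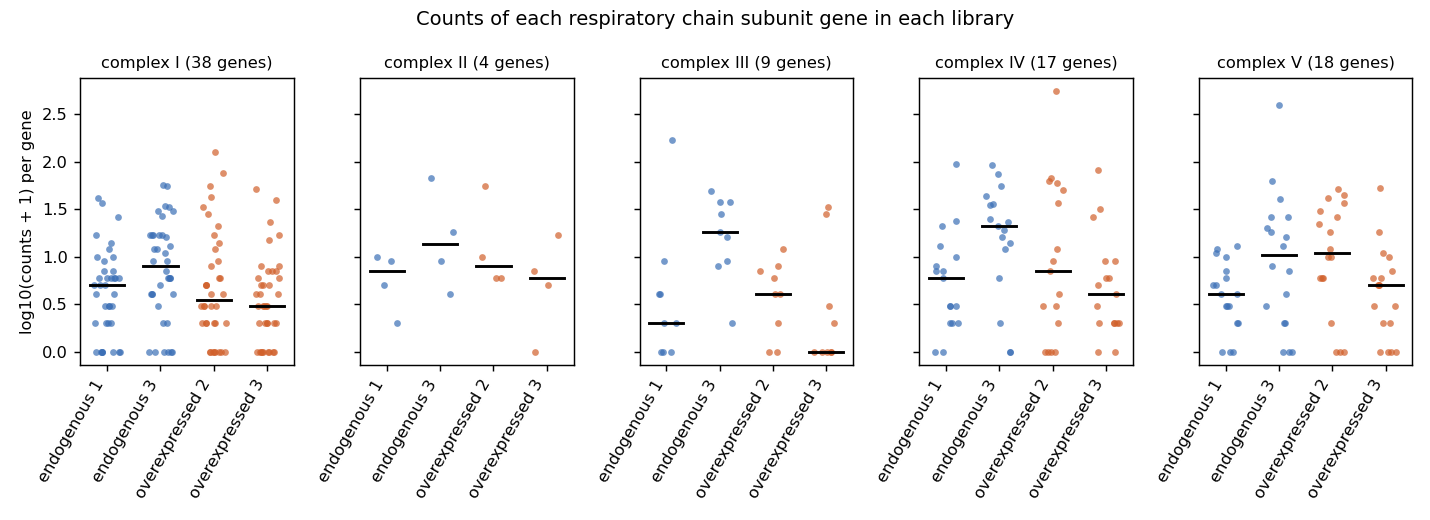
Counts of each member gene in each library as log10(counts + 1), 1 panel per complex, with blue points for endogenous and orange points for overexpressed libraries, spread sideways at random, and a black bar at the median gene. In complex I the median gene had 4, 7, 2.5 and 2 counts, and in complex IV it had 5, 20, 6 and 3.

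The same library pattern ran through single members. It was noticed in the values and is a description. Among 55 members with at least 20 counts over the 4 libraries, 29 were highest in endogenous 3, 17 in overexpressed 2, 7 in overexpressed 3 and 2 in endogenous 1. Both endogenous 3 and overexpressed 2 exceeded both other libraries in 27 of the 55 (49.1%), against 17.6% of the 17606 genes with as many counts. For 10 of the 55 (18.2%) 1 library held at least 80% of the gene's counts, against 3.57% of those 17606 genes. The 9 members that were highest in another library, named after their values were seen, were Uqcrfs1 and Ndufb9 in endogenous 1, and Ndufa6, Ndufa11, Ndufb2, Ndufb8, Cyc1, Cox5b and Atp5j in overexpressed 3. Among them Ndufb8, an accessory subunit of complex I, had 36, 8, 2 and 51 counts, the reverse of the common pattern. Ndufb9, another accessory subunit, had 25, 1, 0 and 5, and Cox5b, a zinc-binding subunit of complex IV, had 5, 11, 0 and 25. Sums over other gene sets were partly alike: 83 cytosolic ribosomal protein genes held 0.361%, 0.519%, 0.517% and 0.220% of counts.

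Markers of mature blood cells that the sort should remove differed between the same libraries. Erythroid markers (8 genes) held 0.0595%, 0.337%, 0.0446% and 0.0223%, neutrophil markers (10 genes) 0.744%, 0.862%, 1.57% and 1.10%, B lineage markers (7 genes) 0.0688%, 0.0286%, 0.0240% and 0.0427%, and dendritic markers (6 genes) 0.0355%, 0.137%, 0.0384% and 0.119%. These sums can rest on 1 gene: Ltf, the granule protein lactoferrin, gave 4538, 3735, 8490 and 7413 of the neutrophil counts. Without it the other neutrophil markers held 0.0504%, 0.337%, 0.421% and 0.0691%. Endogenous 3 and overexpressed 2 were again above endogenous 1 and overexpressed 3, but the order within each of these pairs was the reverse of the members' order. Both endogenous 3 and overexpressed 2 exceeded both other libraries for 6 of 10 neutrophil markers (Camp, Mpo, Ngp, Prtn3, S100a8 and S100a9), 3 of 8 erythroid markers (the globins Hba-a1, Hbb-bs and Hbb-bt), 3 of 6 dendritic markers (Bst2, Irf8 and Siglech), 2 of 11 stem and progenitor markers (Kit and Gata2) and 0 of 7 B lineage markers. S100a8, a calcium-binding protein, had 36, 1130, 739 and 205 counts, and Hbb-bs had 52, 430, 214 and 2. Of the erythroid markers, the globin genes Hba-a1 and Hbb-bt were at 0 in overexpressed 3. The 11 stem and progenitor markers held 0.0223%, 0.0248%, 0.0503% and 0.0201%. The part of these cells in the members' pattern was not tested.

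By complex, the summed shares overlapped between groups for I, II, IV and V. Complex I held 0.0365% and 0.0646% in the endogenous libraries and 0.0641% and 0.0307% in the overexpressed ones, and complex II held 0.00336% and 0.0132% against 0.00990% and 0.00363%. Complex IV held 0.0292% and 0.0646% against 0.116% and 0.0246%, and complex V 0.0115% and 0.0877% against 0.0418% and 0.0170%. Each of these 4 complexes had its highest value in endogenous 3 or overexpressed 2.

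Complex III was the one whose summed share did not overlap. It held 0.0284% and 0.0277% in the endogenous libraries and 0.00488% and 0.00866% in the overexpressed ones, a mean 4.14 times higher with endogenous miR-125a. Different genes made up the 2 endogenous values. In endogenous 1, Uqcrfs1 gave 170 of 186 counts (91.4%), and in endogenous 3 it gave 37 of 197 (18.8%). Without Uqcrfs1 the other 8 genes held 16, 160, 25 and 35 counts, so endogenous 1 was then the lowest library and the groups overlapped. A design of 2 against 2 gives no exact permutation p low enough for a test of such a value.

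**Figure D2:**
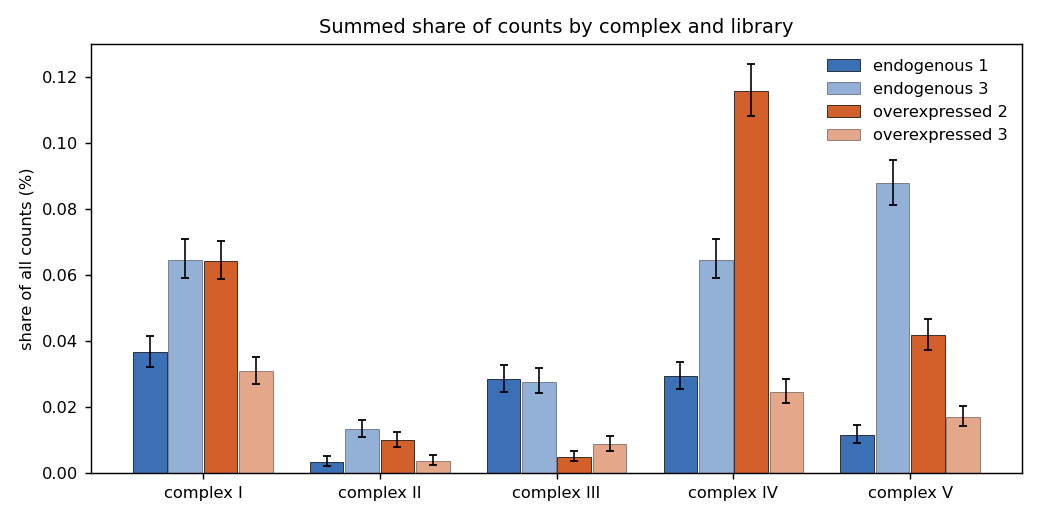
Summed share of all counts (%, axis from 0) for each complex, with 1 bar per library, blue for endogenous and orange for overexpressed, and 95% Wilson intervals as error bars. Complex III is the only one of the 5 in which both endogenous bars, 0.0284% and 0.0277%, stand above both overexpressed bars.

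Single genes carried much of the other complexes too. Cox7a1 gave 548 of the 853 counts of complex IV in overexpressed 2 (64.2%), and the other 16 genes were then highest in endogenous 3, with 97, 405, 305 and 96 counts. Atp5f1 gave 391 of the 625 counts of complex V in endogenous 3 (62.6%), and without it overexpressed 2 was highest, with 70, 234, 272 and 105. Without Sdhb, complex II had 18, 28, 68 and 22 counts. For complexes II, IV and V, leaving out the largest gene turned the log2 ratio of the group means from -0.29 to 0.88, from 0.58 to -0.39 and from -0.75 to 0.24.

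Tested gene by gene, no member passed the threshold. A filter on low counts kept 31 members: 12 of complex I, 1 of II, 1 of III, 10 of IV and 7 of V. By edgeR's quasi-likelihood test with Benjamini-Hochberg adjustment over all 10808 genes tested, 0 of the 31 were called at an adjusted p under 0.05, with adjusted p from 0.814 to 0.998. Over all genes 0 were called as well (0%). At an unadjusted p under 0.05 there were 2 of 31 members, Ndufc1 and Cox6a1, against 566 of all genes (5.24%). Both passed the filter through the endogenous libraries alone, where they were high, so passing it was not independent of their direction. The members past the filter had a log2 fold of overexpressed over endogenous above 0 for 21 and below 0 for 10, with a median of 0.24, against -0.01 over all tested genes. That sign turned with the setting: the members' median was -0.06 with limma-voom. With libraries scaled by their totals it was -0.09, where the median of all genes moved to -0.29. With no filter it was -0.06 over 83 members, but 0.24 over these same 31.

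The spread within a group was larger for members than for other genes. The median absolute log2 difference between replicates was 1.13 for the 31 members in the endogenous group and 2.96 in the overexpressed group, against 0.52 and 0.58 over all tested genes. The median absolute log2 fold between groups was 0.74 for members and 0.41 over all genes, less than either spread for both. The fold contrasts 2 libraries with 2 and the spread compares single libraries, so their sizes are not directly comparable. The standard error of a member's log2 fold had a median of 1.10, against 0.53.

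**Figure D3:**
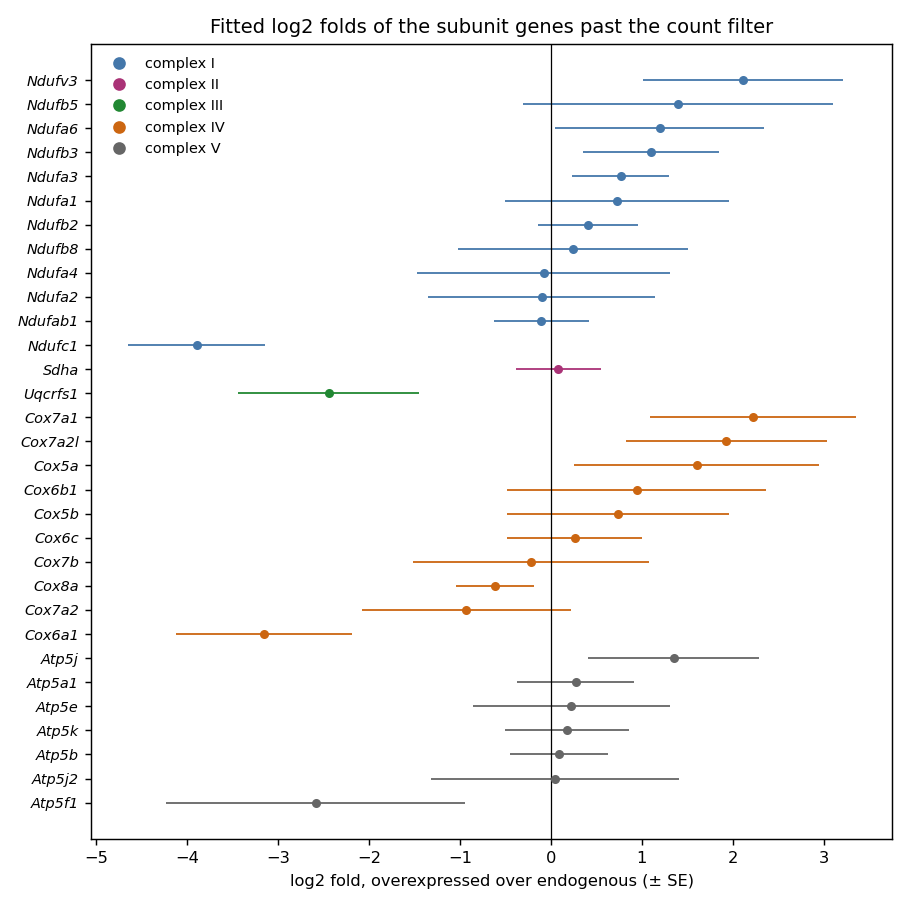
Fitted log2 fold of overexpressed over endogenous with its standard error (bars) for the 31 members past the count filter, coloured by complex. Ndufc1 at -3.90, Cox6a1 at -3.15, Atp5f1 at -2.59 and Uqcrfs1 at -2.45 are the lowest, and Cox7a1 at 2.22 and Ndufv3 at 2.11 the highest.

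In complex I, which oxidises NADH, the densest genes were small accessory subunits. Ndufa1 had 16, 6, 32 and 1 counts, Ndufa4 had 40, 54, 75 and 1, and Ndufa2 had 4, 32, 27 and 1. Overexpressed 3 was the lowest library for all of them and the groups overlapped. Ndufa4 is counted here by its symbol, although its protein is known to bind complex IV. Their log2 folds were 0.72 ± 1.23, -0.08 ± 1.39 and -0.10 ± 1.25 (SE). Several core subunits of the electron path were scarce: Ndufs1, Ndufs3, Ndufs7, Ndufs8, Ndufv1 and Ndufv2 had at most 16 counts in any library, and none passed the filter.

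Ndufc1, an accessory subunit of the membrane arm, had the smallest unadjusted p of the members, 0.00218. It had 11 and 26 counts in the endogenous libraries and 1 in each overexpressed library, and the groups did not overlap. Its log2 fold was -3.90 ± 0.76 (SE) with an adjusted p of 0.814 by edgeR's quasi-likelihood test. Without endogenous 1, overexpressed 2 or overexpressed 3 the fold was between -4.16 and -3.77. Without endogenous 3, which held 26 of its counts, Ndufc1 did not pass the filter, and the fit with no filter gave -3.37. Ndufv3, a subunit of the NADH-binding module, came next in this complex with 5, 11, 55 and 5 counts. Overexpressed 2 alone was high, and the fold was 2.11 ± 1.10 (SE; unadjusted p of 0.104 in edgeR). Ndufb5, an accessory subunit, had the largest summed count of the complex, with 4, 56, 124 and 2.

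Complex II, which oxidises succinate, had 1 gene past the filter. Sdha, the flavoprotein that binds succinate, had 9, 17, 9 and 16 counts, so each group had 1 lower and 1 higher library, and its log2 fold was 0.08 ± 0.47 (SE). Its partner Sdhb, the iron-sulfur subunit, had 4, 66, 5 and 4, with only endogenous 3 high. Sdhc, a membrane anchor, had 8, 8, 54 and 6, with only overexpressed 2 high. The genes of 1 small enzyme thus peaked in different libraries.

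In complex III, which passes electrons from ubiquinol to cytochrome c, Uqcrfs1 was the densest gene and the single one past the filter. Its log2 fold was -2.45 ± 1.00 (SE) with an unadjusted p of 0.0505 and an adjusted p of 0.845 by edgeR's quasi-likelihood test. Without endogenous 1, in which it had 170 counts, the overexpressed libraries no longer stood far below, and the leave-one-out folds ran from -3.23 to -0.59. Uqcrb had 0, 37, 1 and 0 counts, the core protein gene Uqcrc1 had 1, 48, 3 and 2, Uqcr10 had 1, 17, 0 and 0 and Uqcr11 had 3, 15, 3 and 0. For these 4 genes endogenous 3 was the highest library, and endogenous 1 was at 3 counts or fewer. Cyc1, cytochrome c1, had its highest count in overexpressed 3, with 8, 8, 6 and 32.

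Complex IV, cytochrome c oxidase, had the largest share of members above background. Cox6a1, the general isoform of subunit 6a, had 20 and 43 counts against 6 and 0, and the groups did not overlap. Its log2 fold was -3.15 ± 0.97 (SE), with an unadjusted p of 0.0174 and an adjusted p of 0.845 by edgeR's quasi-likelihood test. Cox7b, a small structural subunit, had 6, 91, 59 and 8 counts. Here endogenous 3 and overexpressed 2 were both high, and the fold was -0.22 ± 1.30 (SE). Cox8a, the general isoform of subunit 8, was even across libraries, with 12, 15, 8 and 8, and its fold of -0.61 ± 0.43 (SE) had the smallest error of the members.

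Isoform genes of complex IV gave the highest member of all. Cox7a1 (chr7:30184144-30186078, plus strand, GRCm38), known as the heart and muscle isoform of subunit 7a, had 94, 55, 548 and 80 counts. All 4 libraries were above background, at 176, 103, 1024 and 150 counts per kb of exon, and overexpressed 2 stood apart. Its log2 fold was 2.22 ± 1.13 (SE; unadjusted p of 0.0976 in edgeR), and without overexpressed 2 it was 0.12. Cox7a2, the general isoform, had 1, 35, 11 and 5 counts. In counts per kb the mean level of Cox7a1 was 363 and that of Cox7a2 was 13.8, and Cox7a1 was higher in each of the 4 libraries.

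The other tissue-restricted isoforms were near 0. Cox8b, the muscle isoform of subunit 8, had 0, 0, 0 and 1 counts. Cox8c had 1, 0, 0 and 1, Cox7b2 had 2, 1, 0 and 0, and Ndufa4l2, which is known as a gene induced by hypoxia, had 0, 0, 1 and 0. Cox4i2, the lung and hypoxia isoform of subunit 4, had 2, 5, 2 and 4. Cox6b2, the testis isoform, had 0, 20, 3 and 1, so endogenous 3 alone was high. Its general partner Cox6b1 had 1, 22, 36 and 1.

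**Figure D4:**
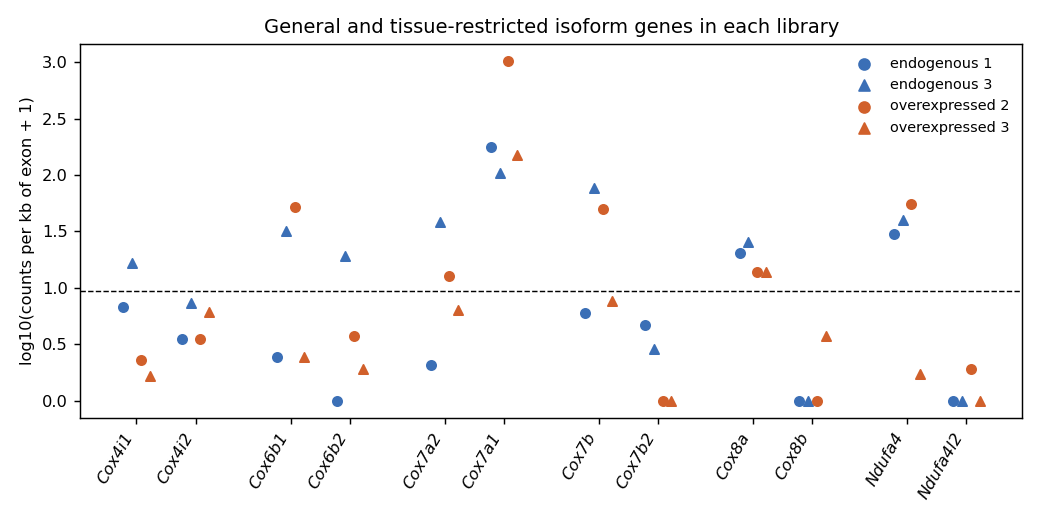
Level of paired general (left of each pair) and tissue-restricted (right) isoform genes in each library, as log10(counts per kb of exon + 1), with blue for endogenous and orange for overexpressed libraries. The dashed line is the density of 8.30 counts per kb that 95% of receptor genes do not exceed, and Cox7a1 is the one tissue-restricted gene above it in all 4 libraries.

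In complex V, ATP synthase, 2 genes of the peripheral stalk had the most counts. Atp5f1, subunit b of the stalk, had 5, 391, 36 and 17 counts. Endogenous 3 held 87.1% of them, and the log2 fold was -2.59 ± 1.64 (SE; unadjusted p of 0.167 in edgeR). Left out in turn, the libraries gave folds from -3.45 to 2.37. Atp5j, coupling factor 6 of the stalk, had 3, 39, 40 and 52 counts. Both overexpressed libraries were above both endogenous ones after scaling, by little over endogenous 3, with a fold of 1.35 ± 0.94 (SE; unadjusted p of 0.201 in edgeR). Atp5k, the small subunit e, had 10, 17, 21 and 6 counts.

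Exons of Atp5j overlap those of a regulator of the whole system. Gabpa, a subunit of the factor that binds ETS motifs in many respiratory promoters, shares 397 exon bases with Atp5j on the opposite strand, and it had 374, 10, 12 and 8 counts. Whether the authors counted by strand is not stated, and the shared bases may have been given to either gene. The 2 genes did not move alike, since endogenous 1 was highest for Gabpa and lowest for Atp5j.

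The catalytic genes Atp5a1 and Atp5b were more even. Atp5a1, the alpha subunit, had 12, 25, 29 and 10 counts and a log2 fold of 0.27 ± 0.65 (SE). Atp5b, the beta subunit, had 6, 15, 11 and 9 and a fold of 0.09 ± 0.53 (SE). The 3 genes that encode the same subunit c of the rotating ring were scarce: Atp5g1 had 3, 12, 5 and 4 counts, Atp5g2 had 1, 3, 0 and 1 and Atp5g3 had 4, 0, 5 and 2.

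Without the filter on low counts the test gave other calls. The same edgeR test on all 46089 genes with a count called 12 of 83 members (14.5%), against 1.78% of all genes. Among genes with at least 20 counts over the 4 libraries it called 11 of 55 members (20%), against 4.46% of 17606. Higher with overexpression by this test were 3 members (background 0.709%): Atp5h, a stalk subunit with 0, 1, 44 and 4 counts, the complex I subunit gene Ndufs6 with 1, 1, 41 and 2, and Atp5mpl, a small subunit of ATP synthase with 1, 2, 25 and 0. Lower were 9 (background 1.07%): Ndufc1, Ndufa7, Sdhb, Uqcr10, Uqcrb, Uqcrc1, Cox4i1, Cox6a1 and Cox7c. Ndufa7, an accessory subunit of complex I, had 1, 29, 0 and 0 counts, and Cox7c, a small subunit of complex IV, had 6, 34, 1 and 3.

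These calls leaned on single libraries. For 8 of the 12, 1 library held at least 80% of the counts, and for 8 of the 12 the groups did not overlap, 2 of them higher and 6 lower. Over all genes with a count 13.8% were higher and 14.3% lower without overlap, but these 12 were picked by the same contrast. Without endogenous 3, Atp5h and Ndufs6 alone of the 12 kept their call. Leaving out any other library also lost calls among the 12. The share of all genes called in these fits, each with a single library in 1 group, is not given. For Ndufc1 the log2 fold was -4.18, -3.37, -3.93 and -3.78 without endogenous 1, endogenous 3, overexpressed 2 and overexpressed 3.

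Other tests called few members. A likelihood ratio test in edgeR on the filtered genes called Ndufc1 (adjusted p of 0.00295) and Cox6a1 (adjusted p of 0.0482), against 0.777% of all genes. DESeq2 gave an adjusted p to 10 of the 31 members, without Ndufc1 and Cox6a1, and called 0 of the 10, against 3.68% of the 4103 genes with one, and limma-voom called 0 genes, with 263 at an unadjusted p under 0.05. The authors' deposited table lists 42 members, of which 4 have an FDR under 0.05 (background 2.37% of 17039 genes). These are Ndufc1 (log2 fold of 3.87, FDR of 0.00219), Cox6a1 (3.12, 0.00642), Cox4i1 (3.17, 0.00822) and Cox7c (3.03, 0.00837) in the authors' deposited table. There a positive fold means higher with endogenous miR-125a: for all 232 genes with an FDR under 0.05 that were also tested here, the sign was opposite to overexpressed over endogenous.

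Groups that did not overlap were also counted, without a test. Among the 31 members past the filter, both overexpressed libraries were above both endogenous ones for 2, Ndufa3 and Atp5j, against 15.2% of all genes tested. They were below for 4, Ndufc1, Uqcrfs1, Cox6a1 and Cox8a, against 18% of all genes. Of these 4, Ndufc1, Cox6a1 and Cox8a passed the filter through the endogenous libraries alone. Over the 83 members with a count, 4 were higher (4.82%) and 17 lower (20.5%), against 13.8% and 14.3% of all genes with a count. With libraries scaled by their totals, 0 of the 31 were higher and 4 lower. The share over all genes with that scaling is not given, so these counts have no background.

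**Figure D5:**
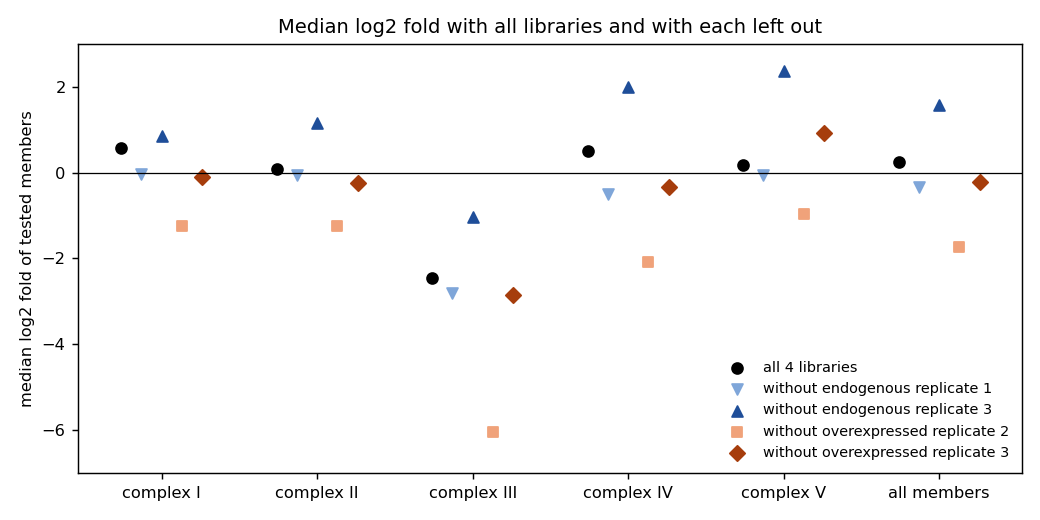
Median log2 fold of overexpressed over endogenous over the tested members of each complex and of all, with all 4 libraries (black circles) and with each library left out (coloured symbols). The genes tested differ between fits, with 31 members in the full set and 37 to 56 with a library left out. All complex III points are below 0, and the median over all members runs from -1.73 to 1.57.

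Leaving out a library moved the members' median across 0, and it also changed which members passed the filter: 56, 37, 51 and 55 members without endogenous 1, endogenous 3, overexpressed 2 and overexpressed 3. For all tested members the median ran from -1.73 to 1.57, for complex I from -1.24 to 0.85, for complex II from -1.23 to 1.16, for complex IV from -2.08 to 2.01 and for complex V from -0.97 to 2.37. Complex III, with 1 gene tested in the full set and 7, 2, 7 and 6 here, had medians from -6.05 to -1.04. With the same 31 members in every fit and no filter, an alternative chosen after seeing the data, the median was 0.24 with all libraries and 0.08, 1.19, -0.89 and 0.89 with each left out in that order. Only leaving out overexpressed 2 then turned its sign. Of the 13 named members tested, 8 changed direction under at least 1 setting. The 5 that kept it were Uqcrfs1, Cox7a1, Cox6a1, Atp5j and Ndufc1, the last with no filtered fit without endogenous 3.

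Some promoters of the members hold motifs that the rule did not use. The 300 bases around each start in the RefSeq promoter table (250 before to 50 after) were found for 69 of the 86 members and searched on both strands for the NRF1 half-site GCGCATG and the ETS motif CCGGAAG, which GABPA binds. Windows are shown for members whose counts are described above, in the direction of transcription with the motif in capitals (GRCm38.p6). CATGCGC is the half-site on the other strand.
Sdhb, chr4:140961207-140961236, plus strand: agcccagtgggCATGCGCcctacgggccgc
Cox6a1, chr5:115349102-115349131, minus strand: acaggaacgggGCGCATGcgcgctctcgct
Atp5k, chr5:108434431-108434460, minus strand: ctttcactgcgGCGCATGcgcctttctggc
Uqcr11, chr10:80406869-80406898, minus strand: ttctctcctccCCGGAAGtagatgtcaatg
Atp5j, chr16:84835019-84835048, minus strand: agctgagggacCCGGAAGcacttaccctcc

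The half-site stood in a promoter of 13 of the 69 members (18.8%), against 4.41% of all 27025 genes with a listed promoter. In Cox6a1 and Atp5k it is followed by cgc, so the full palindrome GCGCATGCGC matches on both strands at once. The ETS motif stood in a promoter of 16 members (23.2%), against 9.93% of all those genes. Both stood in 6. Members with a motif had unlike counts: the Cox6a1 and Sdhb promoters hold both and the Atp5j promoter holds the ETS motif, and these 3 genes had their highest counts in endogenous 3, endogenous 3 and overexpressed 3. The factor gene Gabpa was highest in endogenous 1, as given above. A motif match is no proof of binding, and its absence says only that these letters are not in the window.

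Copies in the genome limit what the counts of some members can show. Of the 86 members, 33 (38.4%) have at least 1 pseudogene copy with 90% identity over 50% of the coding sequence, against 11.6% of 21951 protein-coding genes. The clearest case was Atp5l, subunit g of ATP synthase. It had 1 count in all, while its 13 copies, the closest identical to it, held 54, 52, 50 and 54. The copies of other members ranged from few counts to more than the member: 2 in all beside the 449 of Atp5f1, 20 beside the 44 of Cox7c, 13 beside the 35 of Atp5c1, 10 beside the 24 of Atp5g1, 13 beside the 20 of Ndufa11 and 12 beside the 5 of Atp5g2. The median density was 6.87 counts per kb for members with a copy and 4.93 for the 53 without.

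The subunits encoded in mitochondrial DNA had a library pattern of their own. Their 13 genes held 3.23%, 2.36%, 4.80% and 0.315% of all counts. Overexpressed 3, low for the nuclear members, was lowest here as well, but endogenous 1 was above endogenous 3. For the cytochrome oxidase core gene mt-Co1 the counts were 4592, 3266, 6168 and 186, and for the complex I gene mt-Nd1 they were 4582, 3169, 5350 and 448. In contrast, mt-Nd3, mt-Nd4l, mt-Co2, mt-Co3, mt-Atp6 and mt-Atp8 had at most 11 counts in any library. The sum therefore rests on the remaining genes and says little about the complex V subunits. With 8 of the 13 tested, 4 had a log2 fold above 0 and 4 below, and 0 were called by edgeR's quasi-likelihood test.

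Genes around the chain were counted from lists of assembly factors for each complex, mobile carriers, regulators, the citric acid cycle, glycolysis and the mitochondrial DNA subunits just given. Of 117 rows on these 10 lists, 47 were tested, 25 with a log2 fold above 0 and 22 below, and 0 were called by edgeR's quasi-likelihood test, with 5 at an unadjusted p under 0.05 (background 5.24%). Without the low-count filter 8 of the 117 were called (background 1.78%). Of these, Foxred1, a complex I assembly factor, had 3, 665, 5 and 4 counts, Cycs, the electron carrier cytochrome c, had 1, 103, 6 and 3, and Sdhaf4, a complex II assembly factor, had 2, 34, 2 and 0. Endogenous 3 alone was high for these 3. Idh2, a mitochondrial isocitrate dehydrogenase, had 21, 13, 298 and 32, and Ldha, a lactate dehydrogenase subunit, had 5, 6, 111 and 8, with overexpressed 2 high. Tmem126b, Gabpa and the glycolysis gene Eno1 were high in endogenous 1, with 175, 374 and 155 counts there and at most 12 in any other library.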

How the data were processed

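RNA was measured in 4 libraries of sorted bone marrow cells, 2 with endogenous and 2 with overexpressed miR-125a; the other 2 labelled libraries were not used here. A design written for 3 against 3 was therefore fitted with 2 against 2. Raw counts were deposited by the authors, 1 whole number per gene and library, with a table of log2 fold changes, p-values, FDR and a signed score, per the file headers. Per the submitters' processing notes, the tools were STAR, FastQC 0.11.8 and edgeR 3.24.3 and the build was mm10. Not given in the sources used here are the STAR version, the read counter, the annotation behind it and whether strand was used. All 55450 identifiers matched GENCODE M21 (GRCm38), which gave symbols, exon lengths and 3′ UTRs. Total counts ran from 654126 to 737431 per library, so a gene with few counts has wide counting error.

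Members, lists, tests and the rule for named genes were chosen with earlier results of these data known. Counts were fitted over the whole table with edgeR 4.0.16 in R 4.3.3 (filterByExpr, TMM, quasi-likelihood F test, threshold 0.05 after Benjamini-Hochberg adjustment). The script was tested on simulated data. SE was taken as the size of the log2 fold divided by the root of its F statistic. Alternatives were no filter, library totals, DESeq2 size factors, a likelihood ratio test, DESeq2 1.42.0, limma-voom (limma 3.58.1) and each library left out. Groups were called not overlapping from counts divided by TMM effective sizes. Named members were the 3 densest genes of each complex, the 2 tested genes of each with the smallest p, every member called by the main test or without the filter, and tissue-restricted or duplicated isoforms, 34 in all. Other members named were chosen after their values were seen. Pseudogene copies were sought with blastn 2.17.0. Sequences are from RefSeq (GRCm38.p6) and GENCODE. Values of some single genes are not reported here.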

Additional observations from a re-analysis of the deposited data

How the results depend on the processing

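Over all genes 0 were called in the main analysis, and 822 with no low-count filter, 151 by DESeq2 and 84 by the likelihood ratio test. Of the members, 12 were called with no filter and 2 by the likelihood ratio test, and 0 by the other settings; DESeq2 gave an adjusted p to 10 of the 31. Leaving out each library kept both counts at 0, and without the filter it gave 5 to 13 members. Members above background numbered 27, or 60 and 7 with the receptors' median and 99% density. Members higher without overlap went from 2 to 0 with library totals, for which no share over all genes is given.

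Leaving out each library, the log2 ratio of summed shares ran from -1.12 to 0.56 for all members, -0.72 to 0.38 for complex I, -1.19 to 1.01 for II, -2.52 to -1.70 for III, -0.93 to 1.30 for IV and -1.58 to 1.36 for V. For complex III it was -2.05, and -1.59 without Uqcrfs1. The median log2 fold ran from -1.73 to 1.57 for all members, -1.24 to 0.85 for complex I, -1.23 to 1.16 for II, -6.05 to -1.04 for III, -2.08 to 2.01 for IV and -0.97 to 2.37 for V, with other members past the filter each time. With the members kept the same and no filter, it ran from -0.89 to 1.19 for all, -0.62 to 0.90 for I, -0.26 to 0.40 for II, -3.25 to -0.61 for III, -1.25 to 1.98 for IV and -1.06 to 0.92 for V.

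Among named members, these log2 folds turned direction: Ndufa1 to -0.66, Cox7b to 0.032 and Atp5k to -0.15 with limma-voom, Ndufa2 to 0.0052 with DESeq2, and Sdha to -0.21 and Atp5k to -0.16 with library totals, which moved the median of all genes to -0.29. The cause was not tested. Leave-one-out ranges that crossed 0 were -3.30 to 1.89 for Ndufa1, -5.30 to 0.94 for Ndufa4, -3.84 to 1.79 for Ndufa2, -0.55 to 3.05 for Ndufv3, -0.24 to 0.41 for Sdha, -2.35 to 2.48 for Cox7b, -3.45 to 2.37 for Atp5f1 and -1.05 to 0.91 for Atp5k.

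With a library left out, 1 group has a single library, assumed to vary like the other group. That alternative without the filter, with or without the members kept the same, the shares with a library left out and the non-overlap with library totals were chosen after seeing the data. No paired analysis was possible because the groups share only replicate number 3 in the count table, so the fit with the replicate number as a block was not run. Total counts of this size limit what can be seen: 55 members did not pass the filter, with a median of 18 counts over the 4 libraries.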
